A study of Mus musculus with 12 samples.

Results

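The genes described here carry the machinery that moves lipidated proteins to the rod outer segment, and they were chosen by name: *Unc119*, *Pde6d*, *Arl3*, *Arl2*, *Arl13b*, *Rp2*, *Tulp1*, *Tulp3*, *Rd3* and *Aipl1*. They are 10 of the 56748 genes in the table, and each had 1 row. RNA was sequenced from 12 libraries of 2-week-old littermate mice, 3 for each combination of genotype and fraction. The rod libraries hold RNA from Translating Ribosome Affinity Purification (TRAP) with the RiboTag allele, in which Cre adds an HA tag to a ribosomal protein, and the whole-retina libraries hold the RNA before TRAP. Controls were RiboTag, Shp2 fl/+ with i75-Rod-Cre, named Het here although their sample titles say wt, and knockouts (KO) were RiboTag, Shp2 fl/fl with the same Cre. The study bred the mice to be homozygous for RiboTag. Every mouse therefore carried Cre and at least 1 floxed allele of *Ptpn11*, the gene of the phosphatase Shp2, and a wild-type group without either was not analysed here. Cre was driven by a rhodopsin promoter, so tagging and deletion are limited to rods and to the time after that promoter becomes active.

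A rod makes the membrane proteins of light detection in its inner segment and uses them in its outer segment, a modified cilium. Several of these proteins carry a farnesyl, geranylgeranyl or acyl chain that would stick to any membrane, so they travel bound to a solubilising carrier whose pocket hides the lipid. Unc119 carries acylated cargo such as the rod transducin alpha subunit, and Pde6d carries prenylated cargo such as rhodopsin kinase and the phosphodiesterase catalytic subunits. The GTPase Arl3, in its GTP form, opens both carriers and releases the cargo. Arl13b is the exchange factor that loads Arl3 with GTP in the cilium, and Rp2 is the protein that makes Arl3 hydrolyse it.

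The deposited values are read counts multiplied by 1 factor per library and rounded, which puts the totals of a fraction within a narrow range (14525527 to 14527992 in retina, 16263948 to 16265259 in rods). Reads on genes, estimated in units of 1000000, were 9.98 to 19.2 in 5 retina libraries (no estimate was reached for Het retina replicate 3) and 11.9 to 25.3 in rods. *Ptpn11* read 1735, 2139 and 1971 in KO rods, against 2511, 2439 and 2431 in Het rods. All 3 KO rod values lay below the Het rod values, with a log2 fold change of -0.23 ± 0.09 (SE, n = 3 per group, limma adjusted p = 0.0697), and this count covers the whole gene, not the floxed exon alone. The 8 rod markers summed to 11.9 to 13.6% of the total for Het rods, 13.7 to 15.2% for KO rods and 3.91 to 5.31% in retina. The 49 markers of cones, bipolar, amacrine, ganglion and horizontal cells, Müller glia, microglia, vessels and pigment epithelium summed to 0.0748 to 0.0879% in Het rods, 0.0753 to 0.0836% in KO rods and 0.683 to 0.805% in retina, and 0 of them were at 0 in every rod library.

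Het rods were first compared with Het whole retina, to ask which of the genes are enriched in the RNA that rods translate. In this comparison 7 of the 10 genes were higher in rods and 2 were lower, while 22.9% of the 15951 genes tested were higher and 35.7% were lower. The call asked for a Benjamini-Hochberg adjusted p below 0.05 and a log2 difference whose size exceeds 0.5, from limma on log2 values with a pseudocount of 2. The median log2 fold change of the 10 was 1.21, beside -0.06 over all genes tested. Deposited values in rods were all above those in retina for 7 of the 10 (19.2% of all genes) and all below for 2 (45%). Whole retina itself contains rods, and in bulk RNA fewer cells of a type and less RNA per cell cannot be told apart. The p-values measure the spread between these libraries, since no source used here says whether each came from a different animal.

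*Unc119*, the carrier of acylated cargo, was the most abundant of the 10 in every group. Its deposited values were 19229, 24868 and 13262 in Het retina and 36730, 43611 and 44356 in Het rods. The lowest rod value exceeded the highest retina value, and the log2 fold change was 1.44 ± 0.22 (SE, n = 3 per group, adjusted p = 0.000511), a 2.72-fold difference. By mean scaled value it ranked 29 of 22440 genes with a value in Het rods and 55 of 28425 in Het retina.

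*Pde6d*, the carrier of prenylated cargo, had values of 2256, 2027 and 1986 in Het retina and 4000, 3761 and 4023 in Het rods. Both groups were tight and did not overlap, and the log2 fold change was 1.19 ± 0.10 (SE, adjusted p = 1.51e-05). The carriers stood far apart in level. Per kilobase of the longest coding transcript, *Unc119* was 7.76 to 9.80 times as high as *Pde6d* in the 3 Het rod libraries and 5.65 to 10.4 times as high in Het retina.

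*Arl3*, the release GTPase, had values of 3553, 3485 and 2966 in Het retina and 5838, 5649 and 5967 in Het rods, with a log2 fold change of 1.09 ± 0.11 (SE, adjusted p = 4.3e-05). *Arl13b*, its exchange factor, had values of 1260, 873 and 1085 in Het retina and 2428, 2223 and 2260 in Het rods, with a log2 fold change of 1.40 ± 0.13 (SE, adjusted p = 3.14e-05). Neither gene's groups overlapped. *Rp2*, which switches Arl3 off, had 318, 235 and 424 in Het retina and 403, 359 and 327 in Het rods. These overlapped, and its log2 fold change of 0.47 ± 0.21 (SE, adjusted p = 0.0873) did not pass. With the trend of each library on transcript GC content removed, *Rp2* passed at 0.52 (adjusted p = 0.00242), and it also passed without Het retina replicate 3, at 0.79 (adjusted p = 0.00576).

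The pair of close relatives *Arl3* and *Arl2* went opposite ways. *Arl2* encodes a GTPase that also binds Unc119 and Pde6d and is best known for work with tubulin cofactors. Its values were 354, 513 and 239 in Het retina and 119, 169 and 154 in Het rods. Every rod value lay below every retina value, and the log2 fold change was -0.98 ± 0.29 (SE, adjusted p = 0.0176). Per kilobase, *Arl3* exceeded *Arl2* by 8.69 to 15.9 times in Het retina and by 42.8 to 62.8 times in Het rods. The call for *Arl2* was lost with the GC trend removed (log2 fold change -0.46, adjusted p = 0.0109, under the size threshold), without Het retina replicate 1 (adjusted p = 0.0524) and without Het rod replicate 1 (adjusted p = 0.0697). *Arl2* shares 51 exon bases with *Batf2* on the other strand in the annotation used here, and *Batf2* had no value above 3 in any library.

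The tubby-like proteins gave the widest contrast. *Tulp1*, a photoreceptor protein needed for transport to the outer segment, had values of 7948, 12262 and 5058 in Het retina and 13836, 17581 and 17800 in Het rods. The groups did not overlap, and the log2 fold change was 1.32 ± 0.29 (SE, adjusted p = 0.00417). *Tulp3*, which brings membrane proteins into primary cilia of many cell types, had 211, 291 and 262 in Het retina and 4, 14 and 11 in Het rods. Its log2 fold change was -4.31 ± 0.39 (SE, adjusted p = 2.64e-05), so that rods held 0.0504 times the retina level. The marker lists of other retinal cells had median log2 fold changes between -1.02 (cones) and -5.17 (Müller glia) in the same comparison, and whether the remaining *Tulp3* values come from other cells was not tested. *Tulp3* has no value in the comparison of KO and Het rods that leaves out rod-depleted genes, and neither has *Arl2*.

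*Rd3* and *Aipl1* serve single enzymes of the outer segment. Rd3 binds retinal guanylate cyclase and is needed for its transport, and Aipl1 is the co-chaperone of phosphodiesterase 6. *Rd3* had values of 2385, 3014 and 1629 in Het retina and 3843, 4804 and 4539 in Het rods, with a log2 fold change of 1.23 ± 0.22 (SE, adjusted p = 0.00134). *Aipl1* had 7243, 9456 and 4659 in Het retina and 16466, 19538 and 15618 in Het rods. Its groups did not overlap, as those of *Rd3* did not, and its log2 fold change of 1.61 ± 0.24 (SE, adjusted p = 0.000484) was larger than that of 99.1% of all genes tested. *Rd3* shares 1452 exon bases with the antisense gene *Gm26670*, whose values were at most 69, and the strand used in counting is not given in the sources used here.

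**Figure D1:**
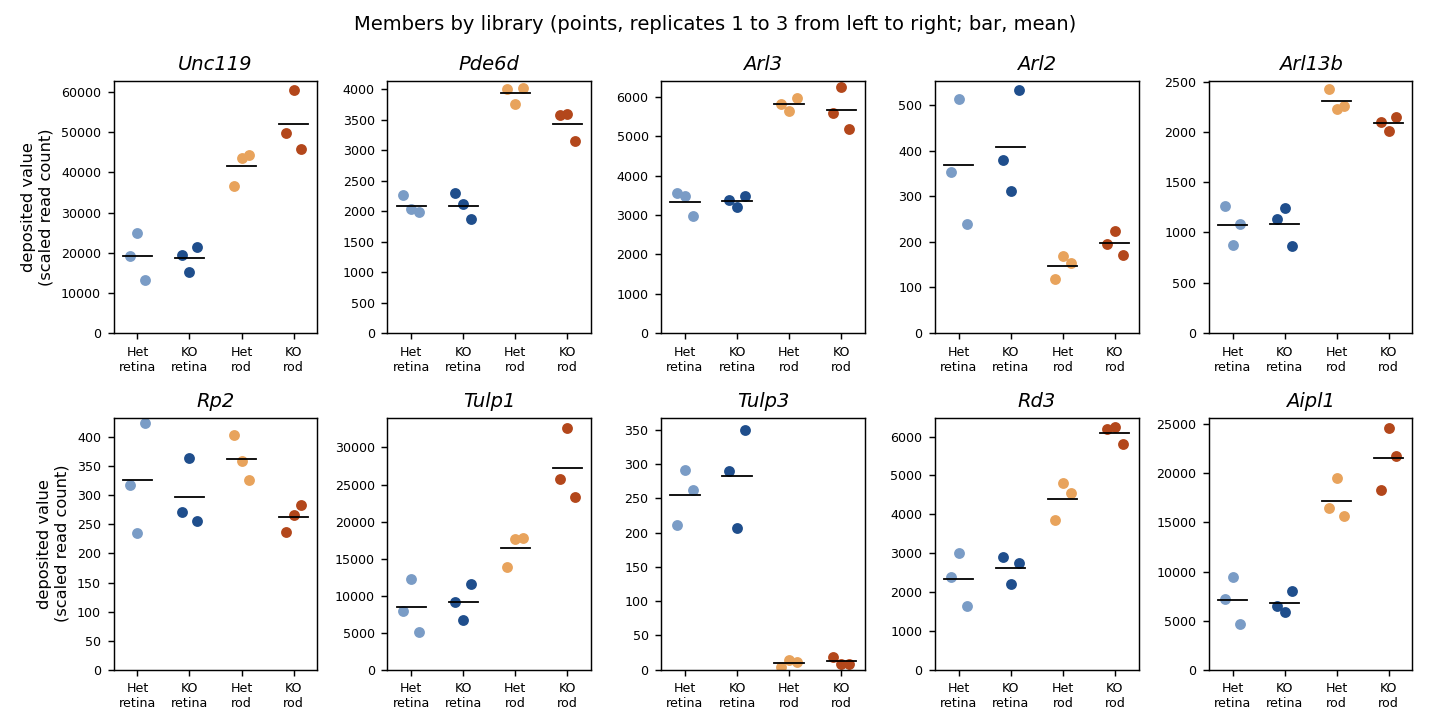
Deposited values (scaled read counts, linear axes from 0) of the 10 genes in each of the 12 libraries, with 1 panel per gene, points for replicates 1 to 3 and bars for group means. In 7 panels both rod groups sit wholly above both retina groups, *Arl2* and *Tulp3* sit wholly below, and the *Rp2* groups overlap between fractions.

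Promoters of all 10 genes were found in the RefSeq promoter table (build GRCm38.p6, 250 bases before to 50 after a start, 13 starts in all). The homeobox factor Crx is a main activator of photoreceptor genes, and its core letters TAATCC, searched on both strands, occur in 7.06% of 32851 mouse promoters of this length. Among the 10 genes, *Unc119* and *Aipl1* had them, and both sequences are shown because they hold these letters. The *Unc119* match is at the second listed start (chr11:78345334-78345633, plus strand) and begins 118 bases before it. The *Aipl1* promoter (chr11:72037460-72037759, minus strand) has 2 matches, which begin 53 bases before the start and at base 11 of the transcript, counted from 1. In capitals are the matches, which lie on the opposite strand and so read GGATTA.
Unc119: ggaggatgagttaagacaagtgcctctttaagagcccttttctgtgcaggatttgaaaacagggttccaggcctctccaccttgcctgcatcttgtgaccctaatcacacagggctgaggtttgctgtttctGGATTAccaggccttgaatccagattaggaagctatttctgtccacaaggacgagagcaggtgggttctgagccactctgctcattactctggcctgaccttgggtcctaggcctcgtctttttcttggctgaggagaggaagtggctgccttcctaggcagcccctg
Aipl1: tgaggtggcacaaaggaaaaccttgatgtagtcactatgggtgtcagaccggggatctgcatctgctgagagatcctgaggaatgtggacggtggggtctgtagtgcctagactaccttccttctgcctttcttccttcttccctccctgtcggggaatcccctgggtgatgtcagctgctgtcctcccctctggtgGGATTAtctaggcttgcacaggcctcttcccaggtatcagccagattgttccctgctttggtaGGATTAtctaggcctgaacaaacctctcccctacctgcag
The E-box letters CACGTG (7.15% of promoters) occur in *Arl3* and *Arl2*, whose rod to retina differences have opposite signs. The Maf core letters TGCTGA (19.5% of promoters) occurs in *Unc119*, *Arl13b* and *Aipl1*. A match shows only that these letters are in the window, and no binding was measured.

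The same comparison in KO mice gave the same 7 genes higher and the same 2 lower, beside 27.4% of 15858 genes higher and 34.9% lower. Values did not overlap in these 9 (all above in 18.4% of genes, all below in 47.6%). The log2 fold changes were 2.07 ± 0.17 for *Aipl1*, 1.99 ± 0.22 for *Tulp1*, 1.88 ± 0.17 for *Unc119* and 1.62 ± 0.13 for *Rd3* (SE, n = 3 per group, adjusted p at most 6.56e-05). *Arl13b*, *Arl3* and *Pde6d* had 1.36, 1.15 and 1.12 (SE 0.12 to 0.13). *Tulp3* was at -4.03 ± 0.35 (adjusted p = 1.7e-05). *Arl2* was at -0.62 ± 0.23 (adjusted p = 0.0377), and this call was lost with the replicate number as a block (adjusted p = 0.0686) and without any 1 of KO retina replicate 1, KO retina replicate 3, KO rod replicate 1 and KO rod replicate 3 (adjusted p 0.0664 to 0.127). *Rp2* was at 0.23 ± 0.17 and did not pass (adjusted p = 0.265). It was at 0.59 with the GC trend removed (adjusted p = 0.00388) and at -0.33 when libraries were scaled by their totals alone. With that trend removed, *Aipl1*, *Tulp1*, *Unc119* and *Rd3* were at 2.02, 2.08, 1.94 and 1.58 in KO mice. In Het mice these genes were then at 1.56, 1.99, 2.02 and 1.17.

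**Figure D2:**
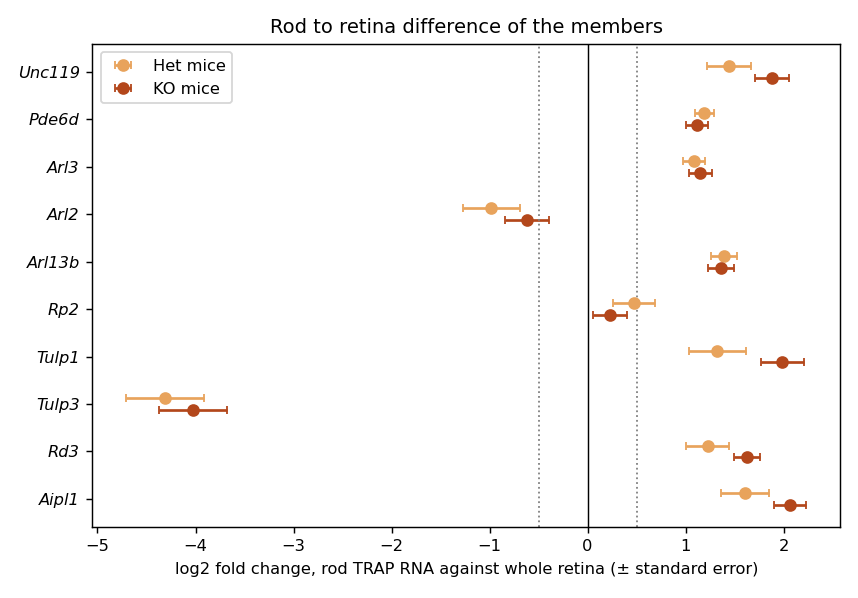
Log2 fold change of rod TRAP RNA against whole retina for each gene, in Het mice (light) and KO mice (dark), with bars for the standard error (n = 3 per group) and dotted lines at the size threshold of 0.5 in either direction. *Tulp3* lies near -4 in both genotypes, *Arl2* is below 0, *Rp2* lies at 0.47 and 0.23, and the other 7 lie between 1.09 and 2.07.

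Levels were set side by side per kilobase of the longest coding transcript and per 1000000 of scaled value. In Het rods the order was *Unc119* at 2127 ± 238 (SD, n = 3), *Tulp1* at 551 ± 80.6, *Aipl1* at 523 ± 68.8, *Arl3* at 406 ± 8.998, *Pde6d* at 238 ± 6.37, *Rd3* at 82.8 ± 10.4, *Arl13b* at 45.8 ± 1.59, *Arl2* at 8.05 ± 1.502, *Rp2* at 5.66 ± 0.55 and *Tulp3* at 0.202 ± 0.109. The ranges of *Tulp1* and *Aipl1* overlapped, and no other neighbours in this order did. The RNAs of the carriers and of the release GTPase were thus far above the RNAs of *Arl13b* and *Rp2*. *Arl3* exceeded *Arl13b* by 8.44 to 9.27 times and *Rp2* by 64.8 to 81.7 times in the Het rod libraries. Protein was not measured in these libraries. In Het retina *Unc119* led at 808 ± 262, *Tulp1*, *Arl3* and *Aipl1* overlapped in turn between 117 and 350, and *Tulp3* at 4.38 ± 0.84 overlapped with *Rp2* at 4.17 ± 1.19. Such ratios between genes rest on 1 transcript length per gene and on even coverage along it, which was not tested.

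**Figure D3:**
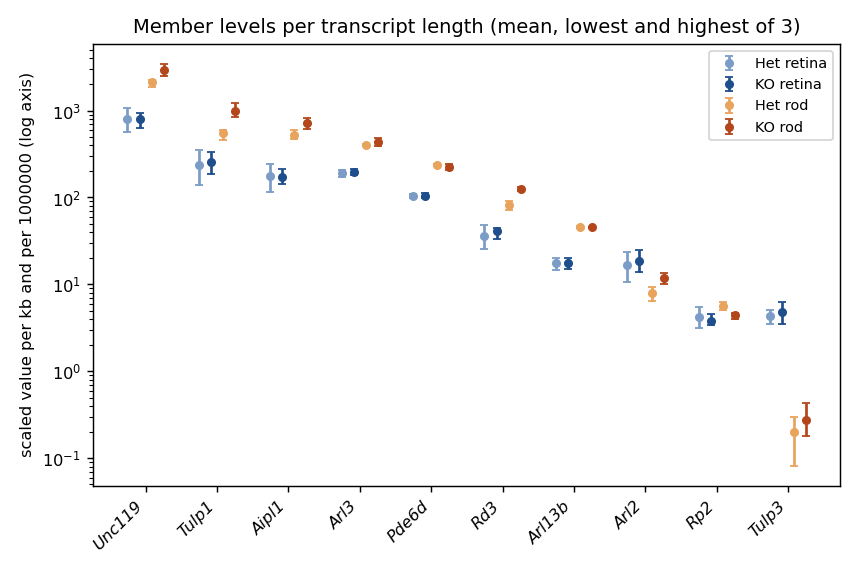
Mean scaled value per kilobase and per 1000000 (log axis) of each gene in the 4 groups, in the order of Het rods, with bars from the lowest to the highest of 3 libraries. *Unc119* is highest in every group, and *Tulp3* is lowest in rods but level with *Rp2* in retina.

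KO rods were then compared with Het rods, to ask whether loss of Shp2 in rods went with a change in these genes. The study removed rod-depleted genes without a stated cutoff in the sources used here. Taking them as the 5689 genes called lower in the Het rod comparison left 10131 genes and 8 of the 10. *Tulp1* and *Rd3* rose, 2 of 8, beside 13.2% of all genes tested higher and 1.85% lower, and 0 of the 8 fell. The median log2 fold change of the 8 was 0.25, beside -0.01 over all genes. Deposited values in KO rods were all above Het rods for 3 of the 8 (20.3% of all genes) and all below for 3 (31.3%). Such counts were taken before the scaling used in the fits. On scaled values per kilobase, *Pde6d* overlapped, at 205 to 240 in KO rods and 231 to 243 in Het rods. *Arl13b* did too, at 44.3 to 45.9 and 44.8 to 47.6. The rod markers moved as well, with 3 of 8 called higher and a median log2 fold change of 0.36, and their part in the differences below was not tested.

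*Tulp1* had deposited values of 25737, 32635 and 23336 in KO rods and 13836, 17581 and 17800 in Het rods. Its groups did not overlap, and the log2 fold change was 0.83 ± 0.16 (SE, n = 3 per group, adjusted p = 0.00821), a 1.78-fold difference. *Rd3* had 6191, 6254 and 5816 in KO rods and 3843, 4804 and 4539 in Het rods, also without overlap, with a log2 fold change of 0.58 ± 0.10 (SE, adjusted p = 0.00354), a 1.497-fold difference. The *Rd3* call was lost on size alone when libraries were scaled by their totals (0.48, adjusted p = 0.00359) and without Het rod replicate 1 (0.48, adjusted p = 0.01). The *Tulp1* call was lost with the GC trend of each library removed (0.09, adjusted p = 0.375) and without the filter on low values (adjusted p = 0.0618). In a single fit of all 12 libraries neither passed (adjusted p = 0.186 for both).

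Of the remaining genes, 3 had an adjusted p below 0.05 with a change under the size threshold. *Unc119* had 49873, 60413 and 45807 in KO rods, all above Het rods, at 0.43 ± 0.12 (SE, adjusted p = 0.0275). *Aipl1* had 18356, 24667 and 21747, which overlapped with Het rods, at 0.43 ± 0.12 (adjusted p = 0.0277). *Rp2* had 237, 266 and 283, all below Het rods, at -0.36 ± 0.12 (adjusted p = 0.0452). *Aipl1* passed the size threshold without Het rod replicate 2 (0.50) or without KO rod replicate 1 (0.54), and *Unc119* did without KO rod replicate 3 (0.52).

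The genes of cargo release gave small differences. *Pde6d* had 3567, 3583 and 3151 in KO rods, each below Het rods, but the scaled log2 fold change was -0.09 with a 95% interval from -0.27 to 0.10. *Arl3* had 5603, 6247 and 5194 and *Arl13b* had 2094, 2013 and 2147, with intervals from -0.12 to 0.26 and from -0.20 to 0.12. All 3 intervals end inside the size threshold of 0.5. With *Unc119* and *Pde6d* taken per kilobase within each library, their ratio was 7.76 to 9.80 in Het rods and 11.8 to 14.3 in KO rods, and the ranges did not overlap. This shift did not hold with the GC trend of each library removed, where *Unc119* was at -0.25 and *Pde6d* at -0.11. With the rod-depleted genes kept in the fit, where 12.1% of 13039 genes were higher and 1.53% lower, *Arl2* had 196, 223 and 172 in KO rods, all above Het rods (log2 fold change 0.53 ± 0.17, SE, adjusted p = 0.0432). *Tulp3* had 19, 9 and 8 in KO rods, which overlapped with Het rods (0.38 ± 0.46, adjusted p = 0.576). Values as low as these could not show a moderate change.

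The KO effect in rods went with transcript GC content over all genes. Over 10 classes of equal size by GC content, the class medians ran from -0.25 (lowest GC) to 0.71 (highest GC). The GC slope of a library, as named here, is a difference in log2 units. It is the median of the highest GC class minus that of the lowest, with each gene centred on its mean in the fraction. It lay from -0.81 to -0.23 for the Het rod libraries, and from 0.28 to 0.76 for those of KO rods. The slopes of the genotypes did not overlap, so that this trend and the genotype cannot be told apart. *Tulp1* (60.5% GC), *Unc119* (59.7%) and *Arl2* (59.1%) lie in the highest class, and *Rp2* (35.9%) in the lowest. *Tulp1* exceeded the median of its class by 0.12, whereas *Unc119* lay 0.28 below it (log2 fold change). *Rd3*, with 51.2% GC, exceeded the median of its class by 0.53 and stood above 96.5% of the genes in it.

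With the GC trend of each library removed, the count of all genes higher went from 1335 to 293 (2.92%) and that of genes lower from 187 to 101. *Rd3* kept its call at 0.58 ± 0.08 (SE, adjusted p = 0.00244), and it was the single gene of the 8 called. *Tulp1* was at 0.09 ± 0.06 (adjusted p = 0.375). *Unc119* turned to -0.25 ± 0.06 (adjusted p = 0.0152) and *Arl13b* to 0.27 ± 0.06 (adjusted p = 0.0172), both under the size threshold. *Aipl1* was at 0.41 ± 0.14 (adjusted p = 0.0952) and *Rp2* at 0.06. *Arl2* was at -0.07 with the rod-depleted genes kept.

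**Figure D4:**
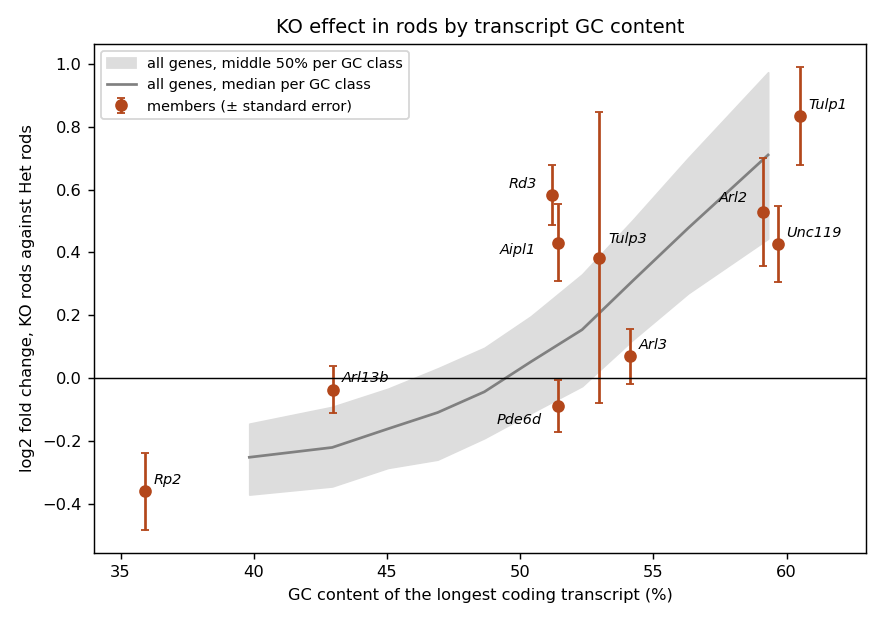
Log2 fold change of KO rods against Het rods (rod-depleted genes kept) by the GC content of the longest coding transcript, with the 10 genes as points (bars, standard error, n = 3 per group) and all genes as the median and middle 50% of each of 10 GC classes, drawn at its median GC content. *Tulp1*, *Arl2* and *Unc119* lie at the end where the median of all genes is 0.71, and *Rd3* lies 0.53 above the median of its class.

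In whole retina the same library slopes varied within both genotypes, from -0.83 to 0.85 in Het and from -0.63 to 0.90 in KO, and several of the genes followed them there. In order of falling slope, the 6 retina libraries were KO 3, Het 2, KO 1, Het 1, KO 2 and Het 3. *Tulp1* read 11635, 12262, 9194, 7948, 6776 and 5058 in that order, and *Arl2* read 532, 513, 380, 354, 312 and 239. *Rp2* ran the other way, at 256, 235, 272, 318, 365 and 424. *Rd3* read 2744, 3014, 2904, 2385, 2210 and 1629, so the 3 libraries with the highest slopes also had the 3 highest *Rd3* values, although its own GC content is near the middle. In the rods *Rd3* followed the slopes too: the values 6254, 6191, 5816, 4804, 4539 and 3843 are those of the libraries KO 2, KO 1, KO 3, Het 2, Het 3 and Het 1, in order of falling slope. Whether another property of the libraries that moves with the slope has a part in the *Rd3* difference was not tested.

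KO whole retina was compared with Het whole retina to ask whether a difference could be seen without purification. None of the 10 genes was called, nor any other: 0% of 16780 genes were higher and 0% lower in limma, and 137 (0.816%) had an unadjusted p below 0.05. The 10 genes had log2 fold changes between -0.09 (*Rp2*) and 0.21 (*Rd3*), and their KO and Het values overlapped in 10 of 10 (all above in 1.28% of genes, all below in 1.65%). *Rd3* read 2904, 2210 and 2744 in KO retina, beside 2385, 3014 and 1629 in Het retina. *Tulp1* read 9194, 6776 and 11635, beside 7948, 12262 and 5058, and its 95% interval of -0.58 to 0.99 includes the difference measured in rods. For *Pde6d* and *Arl3* the intervals, -0.28 to 0.31 and -0.28 to 0.34, were narrower.

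Whether the KO effect differed between the fractions was asked with an interaction term fitted to the 12 libraries. It was called for 0% of 16921 genes in either direction in limma, with 510 (3.01%) at an unadjusted p below 0.05. The 10 genes lay between -0.24 (*Rp2*) and 0.67 (*Tulp1*), 0 of them with an unadjusted p below 0.05. A larger KO effect of *Tulp1* or *Rd3* in rods than in retina was therefore not shown.

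Cargo of this machinery and proteins that act with such cargo were counted from a list of 16 genes, called the cargo list. Not all of the 16 encode lipidated proteins: among those that do not are *Gnb1*, *Pde6g* and the retinal guanylate cyclase genes *Gucy2e* and *Gucy2f*. In Het rods against Het retina 13 of the 16 were higher (22.9% of all genes), with a median of 1.57. *Gnat1*, the rod transducin alpha subunit carried by Unc119, had 355492, 391221 and 397944 in Het rods and 124796, 134206 and 101027 in Het retina (log2 fold change 1.96 ± 0.13, SE, adjusted p = 5.78e-06). *Pde6a*, the prenylated alpha subunit of phosphodiesterase 6, was at 1.91 ± 0.12 (adjusted p = 4.31e-06), and *Gnb1*, the transducin beta subunit, at 1.82 ± 0.10 (adjusted p = 1.93e-06). *Cys1*, which encodes an acylated protein of primary cilia, was lower at -4.41 and is named after its value was seen.

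In KO rods against Het rods, 2 of 14 genes of the cargo list tested rose, near the 13.2% of all genes tested that were higher. *Pde6g*, the inhibitory subunit of phosphodiesterase 6, had 97245, 113089 and 90311 in KO rods and 53120, 76343 and 69444 in Het rods (log2 fold change 0.71 ± 0.15, SE, adjusted p = 0.0129). *Guca1a*, an acylated activator of guanylate cyclase, had 3277, 3504 and 2569 beside 1753, 2063 and 2612 (0.65 ± 0.18, adjusted p = 0.0323), and its groups overlapped. *Gnat1* (0.20), *Pde6a* (0.11) and *Gnb1* (0.04) did not pass. With the GC trend removed 0 of the 14 were called. The *Guca1a* call was also lost without any 1 of Het rod replicates 1 and 2 and KO rod replicates 1 and 2.

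Enzymes that attach or trim the lipids were a list of 8. In Het rods 6 of 8 were higher and 1 was lower (*Nmt2*, an N-myristoyltransferase, at -0.64, named after its value was seen), beside 22.9% higher and 35.7% lower over all genes, with a median of 0.92. *Icmt*, which methylates prenylated cysteines, was at 1.11 ± 0.21 (SE, adjusted p = 0.0019), *Fnta*, the shared alpha subunit of the prenyltransferases, at 0.86 ± 0.11 (adjusted p = 0.000222) and *Nmt1*, the other N-myristoyltransferase, at 0.73 ± 0.12 (adjusted p = 0.000646). The calls of *Fnta* (0.41) and *Nmt1* (0.29) were lost when libraries were scaled by their totals. In KO rods 2 of 7 tested rose (13.2% of all genes higher, 1.85% lower). *Fntb*, the farnesyltransferase beta subunit, had 831, 962 and 884 beside 652, 701 and 678 in Het rods (0.50 ± 0.09, adjusted p = 0.00446), and *Rce1*, which trims prenylated proteins, had 715, 761 and 694 beside 451, 585 and 571 (0.55 ± 0.12, adjusted p = 0.00769). Neither gene's groups overlapped, but 0 of the 7 were called with the GC trend removed, and both calls were lost without Het rod replicate 1 or without KO rod replicate 2 (0.40 to 0.47) and when libraries were scaled by their totals (0.40 and 0.44).

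Paralogs and partners were a list of 15, of which 14 passed the filter in Het mice. There 6 were higher and 1 was lower, beside 22.9% and 35.7% over all genes, with a median of 0.42. *Arl6*, the Arl GTPase of the BBSome, was at 1.72 ± 0.11 (SE, adjusted p = 3.63e-06), *Elmod2*, which activates GTP hydrolysis by Arl proteins, at 1.58 ± 0.16 (adjusted p = 4.23e-05) and *Tub*, the paralog of *Tulp1*, at 0.72 ± 0.14 (adjusted p = 0.00184). The *Tub* call was lost when libraries were scaled by their totals (0.27). *Rd3l*, the paralog of *Rd3*, was the lower gene at -1.04 ± 0.13 (adjusted p = 0.000159, named after its value was seen). Per kilobase *Rd3* was 0.325 to 0.711 times as high as *Rd3l* in Het retina and 2.18 to 2.55 times as high in Het rods. *Unc119* exceeded its paralog *Unc119b* by 79.0 to 96.9 times in Het retina and 182 to 255 times in Het rods.

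In KO rods against Het rods *Tub* was at -0.02 ± 0.07, with 7159, 7235 and 7614 in KO rods beside 8399, 8175 and 7478 in Het rods. Per kilobase *Tulp1* was 4.72 to 6.83 times as high as *Tub* in Het rods and 8.79 to 12.9 times as high in KO rods, without overlap between the genotypes. With the GC trend removed the log2 fold changes were 0.09 for *Tulp1* and -0.11 for *Tub*. In rods that trend and the genotype cannot be told apart.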

How the data were processed

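RNA before and after TRAP was converted to cDNA with the SMART-Seq V4 kit, per the labels. The submitters' processing notes name CASAVA 1.8.2, HISAT2, DESeq2, edgeR and the build GRCm39, and counting tool, annotation and strand are not given in the sources used here. The deposited values are a signal, read counts that the authors' processing multiplied by 1 factor per library and rounded; this step was inferred from the values. The table held 0 columns of other samples.

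TMM factors, computed with code of this work, scaled the values, and log2(value + 2) was used. Genes with a value of 10 in at least 3 libraries and a sum of at least 15 were tested with limma 3.58.1 (R 4.3.3, trend and robust options), with Benjamini-Hochberg adjustment. Only the groups compared entered a fit, except for the interaction. For 3 against 3 the smallest exact permutation p is 0.1. The steps were tested on simulated data with 200 genes changed by a log2 value of 1. For Het rods against Het retina (16005 genes) 79.5% were recovered, and 5.92% of the genes called were false. For KO rods against Het rods (12938 genes) 82% were recovered, and 6.29% of those called were false. The reported KO rod fit had 10131 genes, and its GC slopes did not overlap between genotypes. The simulated rates are therefore not a recovery rate for that fit. Nor are they rates for Het rods against Het retina, where 3653 genes were called higher and 5689 lower, not 200. A count of 3 reads is 1.2e-05 to 3e-05% of a library's total, counting error only.

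Transcript length and GC content came from GENCODE M21 and promoters from RefSeq, both on GRCm38, with figures drawn in matplotlib. The 10 genes and all lists were chosen with earlier results of these data known. Named besides the 10 were, from each list, the 3 genes highest in Het rods and up to 3 called in KO rods. Some list results are not reported here. Replicate numbers paired the libraries of Het rods and Het retina: same-numbered libraries deviated together (correlations 0.252 to 0.475), and 6 of 6 correlated best with their own number. The main fits did not use this pairing, and the replicate block is among the alternatives below.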

Additional observations from a re-analysis of the deposited data

How the results depend on the processing

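The 7 genes higher in rods than in retina kept that direction and call in both genotypes under every alternative run. Scaling by library totals alone moved the median log2 fold change of all genes by -0.45 in Het rods against Het retina, -0.58 in KO rods against KO retina and -0.11 in KO rods against Het rods. It gave 1168 genes higher and 7399 lower in Het mice (3653 and 5689 with TMM), 1144 and 7846 in KO mice (4347 and 5540 with TMM), and 1022 and 545 in KO rods (1335 and 187 with TMM), with 1 of the 8 genes higher. It turned *Ptpn11* in Het rods to -0.089, *Rp2* in KO mice to -0.33, and, in KO rods, *Arl3* to -0.038, *Gnb1* to -0.067 and *Pde6a* to -0.0018. In retina it turned *Pde6d* to -0.0022. No filter on low values gave 8763 genes lower in Het mice and 8340 in KO mice, and 1 of the 8 genes higher in KO rods.

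With the GC trend removed, 1 of the 10 genes was lower in Het rods, and in KO rods 1 of the 8 was higher, with 293 genes higher, 101 lower and 394 in all; with the replicate block added these were 1, 1, 328, 114 and 442. In KO rods both turned *Unc119* to -0.25, *Arl3* to -0.15, *Arl13b* to 0.27, *Rp2* to 0.059, *Gnat1* to -0.0076, *Arl6* to 0.087 and *Elmod2* to 0.11, and in retina *Unc119* to -0.072 and *Rp2* to 0.0050. In KO rods against KO retina, where 1 gene stayed lower with plain empirical Bayes, with the replicate block and with all 12 libraries in 1 fit, the lost gene was *Arl2*. Plain empirical Bayes called 1 gene (lower) in retina. One fit of all 12 libraries called 0 of all genes and 0 of the 8 in KO rods, turned *Tub* there to 0.00042 and turned *Pde6d* in retina to -0.0013. The replicate block changed no other call of the 10 genes, and in KO rods it ended that of *Guca1a* (adjusted p = 0.144). Other pairs of groups were not clearly paired by number: 4, 2 and 2 of 6 libraries were closest to their own number. For KO rods and KO retina, same-numbered libraries correlated at 0.17 on average (lowest -0.016), beside -0.085 for libraries of unlike number.

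Leaving out 1 library gave 1 to 2 genes of the 10 lower in rods in both genotypes, 2889 to 5421 genes lower in Het mice and 3142 to 5319 in KO mice. In KO rods it gave 1 to 3 of the 8 higher, 843 to 1402 genes higher, 96 to 315 lower and 986 to 1717 in all; without KO rod replicate 2 the count higher was 843, and without Het rod replicate 1 the count lower was 96. *Arl3* ranged from -0.051 to 0.14 and *Tub* from -0.069 to 0.0095 in KO rods. In retina it gave 0 to 1 genes, and for the difference of KO effects 0 to 1. In retina the log2 fold changes then ranged, for *Unc119* from -0.21 to 0.23, *Pde6d* from -0.036 to 0.060, *Arl3* from -0.040 to 0.071, *Arl2* from -0.073 to 0.46, *Arl13b* from -0.11 to 0.14, *Rp2* from -0.30 to 0.13, *Tulp1* from -0.11 to 0.52, *Tulp3* from -0.061 to 0.35, *Rd3* from -0.019 to 0.41 and *Aipl1* from -0.27 to 0.23. With 3 libraries a group, depth and spread leave changes of *Tulp3* in rods unresolved. The causes of these shifts were not tested.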
